A study of Mus musculus with 2 samples.

Results

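Apoptosis regulators and p53 pathway genes were followed in 2 RNA sequencing libraries of mouse hematopoietic stem cells (HSCs), sorted by a Satb1-Tomato reporter. The genes were taken by symbol from a list of 42 BCL2 family, caspase, death receptor, inhibitor of apoptosis and p53 pathway genes, and all 42 were found among the 23210 genes used. SATB1 is a chromatin-organizing protein. The groups were Satb1-Tomato-positive (SATB1-positive) and Satb1-Tomato-negative (SATB1-negative) cells, with 1 library each. By the sort stated in the labels, both fractions were CD150-positive and Flt3-negative LSK cells, that is, cells without lineage markers that carry Kit and Sca-1, so the 2 groups share every gate except the reporter. The labels used here give no treatment, age, strain or number of pooled animals. With 1 library per group a difference has no replicate check, and no p-value was computed.

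In the mitochondrial pathway of apoptosis, BCL2-like proteins hold the pore-forming effectors BAX and BAK in check, BH3-only proteins relieve that block, and cytochrome c released from mitochondria then assembles with APAF1 and caspase-9 into the apoptosome. A separate route starts at death receptors on the cell surface and runs through FADD and caspase-8. The transcription factor p53 is kept low by MDM2 and MDM4 and, after DNA damage or other stress, raises genes of both cell cycle arrest and apoptosis. Hematopoietic stem cells are known to depend on MCL1 for survival.

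Levels are FPKM (fragments scaled by transcript length and by the library's mapped total), which are scaled for length and can be compared between genes. A log2 ratio is log2((SATB1-positive FPKM + 1)/(SATB1-negative FPKM + 1)). This makes differences of genes at a few FPKM or less look smaller than they are, most of all under about 1 FPKM. A fold is the plain SATB1-positive FPKM over the SATB1-negative FPKM, so that a fold under 1 means lower in SATB1-positive cells. Its 95% interval comes from fragment numbers estimated with the shortest annotated transcript, which widens it for genes with short isoforms such as Cflar and Fas, and covers counting error only, with depths near 26900000 SATB1-positive and 34920000 SATB1-negative fragments. The 1.5-fold rule asked for a log2 ratio of 0.58 or beyond in either direction and the 2-fold rule for 1 or beyond, both for genes whose higher level was 5 FPKM or more.

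Satb1 was at 8.26 FPKM in the SATB1-positive and 2.37 FPKM in the SATB1-negative library. Flt3, whose protein the gate selects against, was detected in both libraries, at 27.1 FPKM in SATB1-positive and 17.3 FPKM in SATB1-negative cells, a fold of 1.56 (1.48 to 1.66) that passed the 1.5-fold rule as higher. The HSC genes Procr, Mecom, Esam, Clec1a, Slamf1, Hlf and Fgd5 were present in both libraries. Procr, the surface receptor EPCR, was at 17.5 FPKM in SATB1-positive and 24.6 FPKM in SATB1-negative cells, and Hlf, a transcription factor of HSCs, at 58.4 FPKM in SATB1-positive and 72.7 FPKM in SATB1-negative cells. Mecom, another such factor, Esam and Clec1a were lower past the 1.5-fold rule, Mecom at 31.1 FPKM in SATB1-positive and 49.4 FPKM in SATB1-negative cells, Esam at 34.2 FPKM in SATB1-positive and 68.5 FPKM in SATB1-negative cells and Clec1a at 2.003 FPKM in SATB1-positive and 7.04 FPKM in SATB1-negative cells. All of these HSC genes had log2 ratios below 0. Markers of other cells differed between the libraries. All 12 T and natural killer (NK) cell markers had a log2 ratio above 0, with a summed level of 405 FPKM in SATB1-positive and 175 FPKM in SATB1-negative cells. Nkg7 made up most of this sum, at 313 FPKM in SATB1-positive and 152 FPKM in SATB1-negative cells. The 6 mast cell and basophil markers summed to 694 FPKM in SATB1-positive and 308 FPKM in SATB1-negative cells, and 5 of 6 passed the 2-fold rule as higher, all but Gata2. The 8 neutrophil markers summed to 3211 FPKM in SATB1-positive and 1560 FPKM in SATB1-negative cells and did not share a direction. Mpo, Elane and Ctsg, granule genes of early myeloid cells, passed the 2-fold rule as higher, and Mpo alone was at 1528 FPKM in SATB1-positive and 437 FPKM in SATB1-negative cells. S100a8, Ngp, Camp and Ltf had log2 ratios below 0, Camp past the 1.5-fold rule as lower, and the median of the list was -0.06. B cell markers summed to 35.1 FPKM in SATB1-positive and 34.9 FPKM in SATB1-negative cells, and Cd79b made up nearly all of it, while Pax5 was listed at 0 in the SATB1-positive library. Monocyte and dendritic cell markers summed to 720 FPKM in SATB1-positive and 678 FPKM in SATB1-negative cells, mostly from Lyz2 and Cst3, while 3 of the 6, Irf8, Csf1r and Ly86, passed the 1.5-fold rule as higher and the median log2 ratio was 0.40. Platelet markers summed to 184 FPKM in SATB1-positive and 152 FPKM in SATB1-negative cells, with 2 of 5 past the 1.5-fold rule as higher, Pf4 at 1.82-fold and Ppbp at 4.96-fold. Erythroid markers summed to 56.6 FPKM in SATB1-positive and 52.9 FPKM in SATB1-negative cells, with Hbb-b1 past the 1.5-fold rule as higher and Hba-a1 as lower. Endothelial and stromal markers summed to 103 FPKM in SATB1-positive and 52.4 FPKM in SATB1-negative cells, and 3 of 6, Col1a1, Col1a2 and Pdgfrb, passed the 2-fold rule as higher. The lineage-negative gate stated for both fractions is meant to remove mature cells, and how far it did so here was not tested. In bulk libraries such as these, fewer cells of a type and less RNA per cell cannot be told apart.

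The log2 ratios of the apoptosis and p53 genes were mostly small, with a median size close to that of all genes at the same level. Of the 42 genes, 37 reached 1 FPKM in either library and 29 reached 5 FPKM. None of the 29 passed the 2-fold rule in either direction, against 1.31% of all 9308 genes at that level that passed as higher (122) and 0.688% that passed as lower (64). In the higher direction of the 1.5-fold rule, 2 of the 29 passed, the BH3-only gene Pmaip1 and the apoptosome gene Apaf1, against 3.80% of all genes (354 of 9308). In the lower direction none of the 29 passed, against 2.90% (270 of 9308). A share of 6.90% of the 29 in the higher direction is 2 genes. With only 29 genes, neither this count nor the counts of 0 can be set apart from the background shares. With a pseudocount of 5 FPKM in place of 1 neither gene passed. The median log2 ratio of the 37 genes was -0.02, beside -0.0059 over the 11873 genes that reached 1 FPKM. Ratios were above 0 for 18 of the 37 genes and below 0 for 19. The median size of the log2 ratio, sign aside, was 0.14 over the 29 genes and 0.16 over the 9308. A log2 ratio inside log2(1.25) either way was found for 20 of the 29 genes (69.0%) and for 7322 of the 9308 (78.7%).

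**Figure D1:**
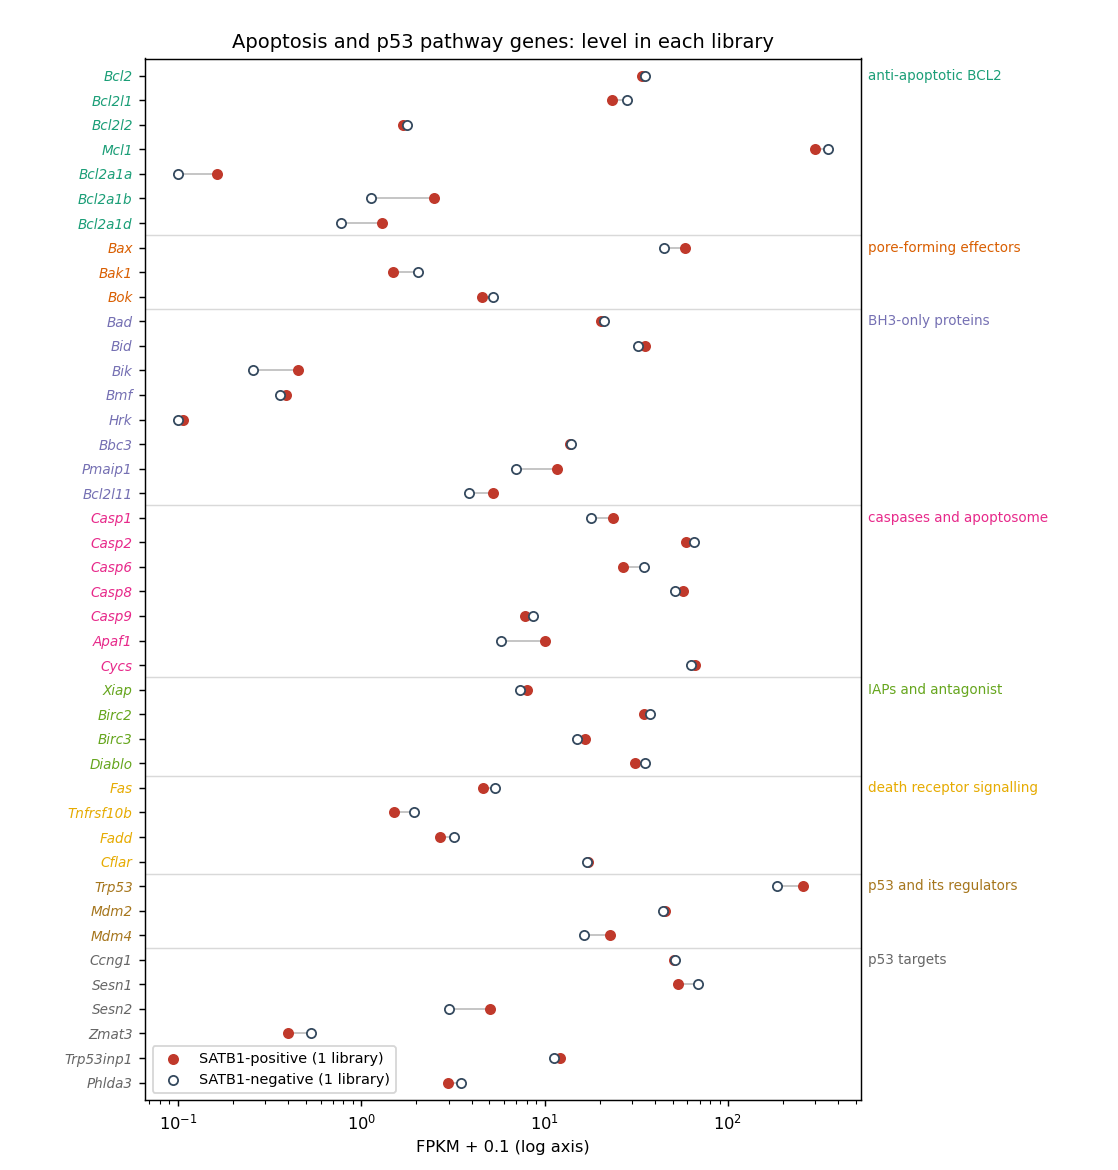
Level of each of the 42 genes as FPKM + 0.1 on a log axis, with filled points for the SATB1-positive and open points for the SATB1-negative library, grouped by role. For most genes the 2 points lie almost on each other, from Mcl1 as the most abundant, at 299 FPKM in SATB1-positive and 353 FPKM in SATB1-negative cells, down to Hrk.

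**Figure D2:**
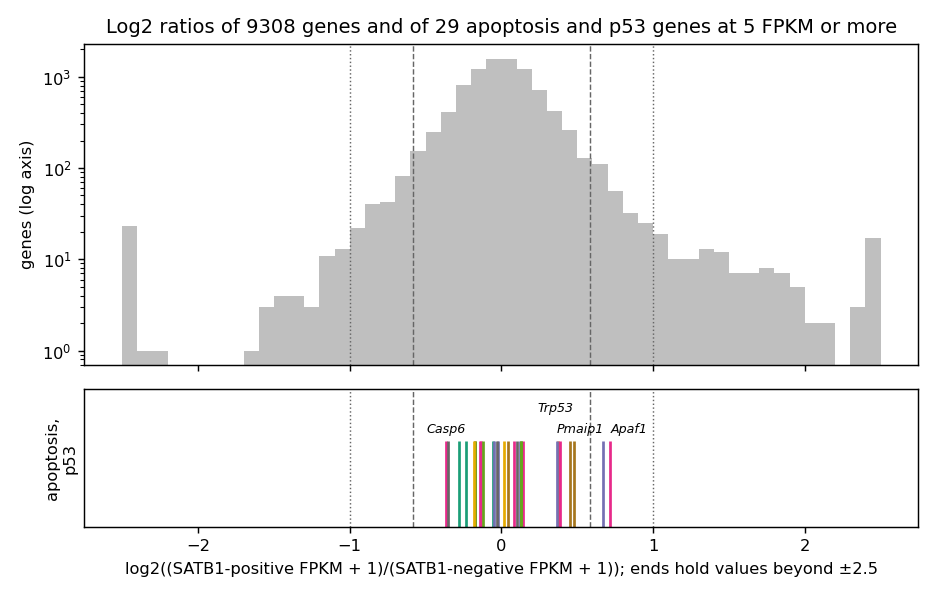
Log2 ratios (FPKM + 1) of the 9308 genes that reached 5 FPKM as a histogram on a log axis, above ticks for the 29 apoptosis and p53 genes in the same range. Dashed lines mark the 1.5-fold and dotted lines the 2-fold rule, and the Pmaip1 and Apaf1 ticks, at 0.67 and 0.72, lie beyond the upper dashed line.

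The promoter windows of 4 genes are given as sequence, and the part of any letters in the levels was not tested. They were taken from RefSeq on build GRCm38.p6 (mm10), from 250 bases before to 50 after a transcription start. Of the 42 genes, 37 had such windows, 50 in all. Bik, Pmaip1, Trp53inp1, Tnfrsf10b and Zmat3 had no window and were not searched. Apaf1, Mdm2, Ccng1 and Trp53 are shown because Apaf1 had the largest log2 ratio of the 29 genes, Mdm2 and Ccng1 are textbook p53 targets whose levels lay within a few percent of each other in the 2 libraries, and Trp53 is the regulator itself. Capitals mark GGGCGG, the SP1 box, on either strand in Apaf1, and a single match to the p53 consensus decamer in each of the other 3 genes. The windows lie at chr10:91082694-91082993 (minus strand) for Apaf1, chr10:117710709-117711008 (minus) for Mdm2, chr11:40755237-40755536 (minus) for Ccng1 and chr11:69580109-69580408 (plus) for Trp53.
Apaf1: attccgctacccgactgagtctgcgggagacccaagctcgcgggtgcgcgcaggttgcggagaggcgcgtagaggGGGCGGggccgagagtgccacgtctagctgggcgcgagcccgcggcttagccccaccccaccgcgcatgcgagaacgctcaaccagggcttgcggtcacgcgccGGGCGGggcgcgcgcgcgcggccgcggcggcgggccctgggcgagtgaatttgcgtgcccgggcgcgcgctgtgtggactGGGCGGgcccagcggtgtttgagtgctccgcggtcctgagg
Mdm2: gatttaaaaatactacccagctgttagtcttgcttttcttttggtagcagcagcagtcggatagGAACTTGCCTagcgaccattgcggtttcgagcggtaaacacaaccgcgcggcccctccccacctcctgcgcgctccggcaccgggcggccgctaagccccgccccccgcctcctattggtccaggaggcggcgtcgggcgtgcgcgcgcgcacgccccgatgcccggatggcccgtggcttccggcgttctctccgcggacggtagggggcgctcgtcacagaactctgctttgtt
Ccng1: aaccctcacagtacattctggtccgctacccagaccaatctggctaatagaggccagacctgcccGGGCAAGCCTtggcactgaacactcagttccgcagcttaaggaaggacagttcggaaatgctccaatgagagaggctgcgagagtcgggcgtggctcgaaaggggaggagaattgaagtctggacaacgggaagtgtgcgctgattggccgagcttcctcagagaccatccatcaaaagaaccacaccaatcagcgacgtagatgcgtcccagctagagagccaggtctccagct
Trp53: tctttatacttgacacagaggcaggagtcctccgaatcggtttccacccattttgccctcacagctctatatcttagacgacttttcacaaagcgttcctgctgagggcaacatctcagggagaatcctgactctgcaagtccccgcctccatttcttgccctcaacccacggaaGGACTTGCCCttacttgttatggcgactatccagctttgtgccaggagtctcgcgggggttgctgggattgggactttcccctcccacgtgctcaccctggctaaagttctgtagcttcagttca
The p53 decamer, which reads the same on both strands by its consensus, was found in 7 of the 50 windows (14.0%), those of Bax, Birc2, Bmf, Ccng1, Mdm2, Sesn1 and Trp53, and in 8.36% of all 32851 windows. The matches were GAACTTGCCT in Mdm2, GGGCAAGCCT in Ccng1 and GGACTTGCCC in Trp53, and AGGCAAGCTT in Bax and AAGCTTGTTT in Sesn1. None of these letters was found in the Apaf1 window. GGGCGG on either strand was found in 33 of the 50 windows (66.0%), Apaf1 among them, and in 35.7% of all windows. The E2F letters TTTCGCGC, searched on both strands, were found in 1 of the 50 windows, that of Bcl2l1, and in 0.323% of all windows, and TTTGGCGC in 0 of the 50 and 0.514% of all. A match describes the letters in a window and is not a measured binding site.

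Among the anti-apoptotic BCL2 genes, Mcl1 dominated in both fractions. Mcl1, whose short-lived protein restrains BAK, was at 299 FPKM in SATB1-positive and 353 FPKM in SATB1-negative cells, a fold of 0.849 (0.836 to 0.863). It ranked 205th in level of 23210 genes in the SATB1-positive and 162nd in the SATB1-negative library, and held 82.8% of the summed FPKM of the 7 anti-apoptotic genes in SATB1-positive and 84.1% in SATB1-negative cells. Bcl2, the founding member, followed at 33.8 FPKM in SATB1-positive and 35.1 FPKM in SATB1-negative cells, a fold of 0.963 (0.913 to 1.02). Bcl2l1, which encodes BCL-XL, the survival factor of platelets and red cell precursors, was at 23.1 FPKM in SATB1-positive and 28.2 FPKM in SATB1-negative cells, a fold of 0.818 (0.764 to 0.876). Bcl2l2, which encodes BCL-W, was near the floor at 1.59 FPKM in SATB1-positive and 1.68 FPKM in SATB1-negative cells, and shares 12.1% of its 50-base words with an overlapping annotated gene. The order Mcl1, Bcl2, Bcl2l1, with the rest far below, was the same in both libraries. Log2 ratios were -0.24 for Mcl1, -0.05 for Bcl2, -0.28 for Bcl2l1 and -0.05 for Bcl2l2, none past a rule. The summed level of the 7 anti-apoptotic genes was 362 FPKM in SATB1-positive and 419 FPKM in SATB1-negative cells.

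The Bcl2a1 genes, which encode the NF-kB-induced survival protein A1 of granulocytes, mast cells and activated lymphocytes, were low, with log2 ratios above 0. Bcl2a1b was at 2.41 FPKM in SATB1-positive and 1.03 FPKM in SATB1-negative cells, a fold of 2.34 (1.37 to 4.17) on about 40 and 22 fragments. Bcl2a1d was at 1.20 FPKM in SATB1-positive and 0.680 FPKM in SATB1-negative cells, a fold of 1.77 (0.847 to 3.49), and Bcl2a1a at 0.0632 FPKM in SATB1-positive cells and listed at 0 in SATB1-negative cells. These genes are near-identical copies on chromosome 9. Between 69.0% and 79.5% of their 50-base words recur in other genes, chiefly in one another, so the split of reads between the copies is uncertain. Summed over the 3 copies, the level was 3.67 FPKM in SATB1-positive and 1.71 FPKM in SATB1-negative cells, a fold of 2.15 (1.39 to 3.26) on about 62 and 38 fragments. All 3 were under the 5 FPKM minimum of both rules. The T and NK cell and the mast cell marker sums given above were also higher in the SATB1-positive library, while the neutrophil markers were split, with Mpo, Elane and Ctsg higher and Camp lower. The part of cells of these types in the Bcl2a1 values was not tested.

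The pore-forming effectors were carried by Bax. Bax was at 57.9 FPKM in SATB1-positive and 44.6 FPKM in SATB1-negative cells, a fold of 1.30 (1.19 to 1.42) and a log2 ratio of 0.37, under the 1.5-fold rule. An annotated gene on the same strand overlaps its exons and shares 8.51% of its 50-base words. Bak1, the other main effector, was at 1.39 FPKM in SATB1-positive and 1.94 FPKM in SATB1-negative cells, a fold of 0.720 (0.546 to 0.955), and overlaps a gene on the opposite strand. Bok, a BAX-like protein that BCL2 proteins do not restrain, was at 4.45 FPKM in SATB1-positive and 5.15 FPKM in SATB1-negative cells, a fold of 0.863 (0.698 to 1.07). Bax thus exceeded Bak1 41.5-fold in level in SATB1-positive and 23.0-fold in SATB1-negative cells. The FPKM ratio of Bax to Bcl2 was 1.71 in SATB1-positive and 1.27 in SATB1-negative cells.

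Of the 8 BH3-only genes, which trigger the pathway, 5 were measured at 1 FPKM or more. Bid, which links caspase-8 to mitochondria, was the most abundant at 35.2 FPKM in SATB1-positive and 32.2 FPKM in SATB1-negative cells, a fold of 1.09 (1.03 to 1.16). Bad, a growth factor-regulated antagonist of BCL2 and BCL-XL, was at 20.2 FPKM in SATB1-positive and 20.9 FPKM in SATB1-negative cells, a fold of 0.964 (0.848 to 1.09). Bbc3, which encodes PUMA, a main killer protein downstream of p53, was at 13.7 FPKM in SATB1-positive and 13.9 FPKM in SATB1-negative cells, a fold of 0.986 (0.883 to 1.10). Pmaip1, which encodes NOXA, a p53 target that binds MCL1, was at 11.6 FPKM in SATB1-positive and 6.92 FPKM in SATB1-negative cells, a fold of 1.68 (1.51 to 1.87) on about 788 and 609 fragments. Bcl2l11, which encodes BIM, the FoxO-regulated killer of cytokine-deprived blood cells, was at 5.15 FPKM in SATB1-positive and 3.77 FPKM in SATB1-negative cells, a fold of 1.37 (1.15 to 1.61) with a log2 ratio of 0.37. The 2 p53-regulated killer genes thus gave different values, with Pmaip1 past the 1.5-fold rule and Bbc3 at nearly the same level in both libraries. The Mcl1 to Pmaip1 level ratio was 25.8 in SATB1-positive and 51.0 in SATB1-negative cells. Bik was at 0.354 FPKM in SATB1-positive and 0.156 FPKM in SATB1-negative cells, and Bmf at 0.287 FPKM in SATB1-positive and 0.260 FPKM in SATB1-negative cells. Hrk, known best from neurons, was at 0.00725 FPKM in SATB1-positive cells and listed at 0 in SATB1-negative cells.

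The caspases and apoptosome genes were all above 5 FPKM in at least 1 library. Cycs, cytochrome c, was the most abundant at 66.4 FPKM in SATB1-positive and 62.6 FPKM in SATB1-negative cells, a fold of 1.06 (1.02 to 1.10). Other annotated genes share 25.9% of its 50-base words. Apaf1, the scaffold of the apoptosome (chr10:90989311-91082770), was at 9.94 FPKM in SATB1-positive and 5.65 FPKM in SATB1-negative cells, a fold of 1.76 (1.62 to 1.91) on about 1323 and 976 fragments. Casp9, the caspase that the apoptosome activates, was at 7.69 FPKM in SATB1-positive and 8.55 FPKM in SATB1-negative cells, a fold of 0.900 (0.768 to 1.06), so that the Casp9 to Apaf1 level ratio was 0.774 in SATB1-positive and 1.51 in SATB1-negative cells. Apaf1 was below Casp9 in level in the SATB1-negative library and above it in the SATB1-positive one. Casp9 overlaps 2 annotated genes on the opposite strand. The initiator Casp2 was at 59.2 FPKM in SATB1-positive and 65.4 FPKM in SATB1-negative cells, and Casp8, the caspase of death receptors, at 56.6 FPKM in SATB1-positive and 51.3 FPKM in SATB1-negative cells. Casp6, an executioner caspase, was at 26.8 FPKM in SATB1-positive and 34.8 FPKM in SATB1-negative cells, a fold of 0.769 (0.708 to 0.836), which gave the lowest log2 ratio of the 37 measured genes, -0.37. Casp1, the caspase of inflammasomes rather than of apoptosis, was at 23.4 FPKM in SATB1-positive and 17.7 FPKM in SATB1-negative cells, a fold of 1.32 (1.20 to 1.46).

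The 4 listed genes of the inhibitor of apoptosis group lay close together in the 2 fractions. Birc2, which encodes the ubiquitin ligase cIAP1, was at 34.6 FPKM in SATB1-positive and 37.7 FPKM in SATB1-negative cells, a fold of 0.918 (0.873 to 0.964). Birc3, encoding cIAP2, was at 16.5 FPKM in SATB1-positive and 14.9 FPKM in SATB1-negative cells, a fold of 1.10 (1.02 to 1.20). Xiap, the direct caspase inhibitor, was at 7.96 FPKM in SATB1-positive and 7.21 FPKM in SATB1-negative cells, a fold of 1.10 (1.02 to 1.20). Diablo, the mitochondrial antagonist of these inhibitors, was at 31.2 FPKM in SATB1-positive and 35.3 FPKM in SATB1-negative cells, a fold of 0.883 (0.819 to 0.953), and it overlaps 3 other annotated genes. The 4 log2 ratios spanned -0.17 to 0.13. Of the Birc genes outside the list, Birc5 was at 94.6 FPKM in SATB1-positive and 69.9 FPKM in SATB1-negative cells, a fold of 1.35 (1.27 to 1.44). Birc6 was at 8.51 FPKM in SATB1-positive and 7.87 FPKM in SATB1-negative cells, a fold of 1.08 (1.03 to 1.13).

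The 4 listed genes of death receptor signalling had the lowest summed level of the 8 groups, 25.7 FPKM in SATB1-positive and 27.2 FPKM in SATB1-negative cells. Cflar held 66.9% of this sum in SATB1-positive and 62.5% in SATB1-negative cells. This rank holds for the listed genes only. Tnfrsf1a, a death receptor outside the list, was alone at 58.4 FPKM in SATB1-positive and 61.0 FPKM in SATB1-negative cells. Cflar, encoding cFLIP, which blocks caspase-8 at the receptor, was at 17.2 FPKM in SATB1-positive and 17.0 FPKM in SATB1-negative cells, a fold of 1.01 (0.728 to 1.41). Fas was at 4.51 FPKM in SATB1-positive and 5.25 FPKM in SATB1-negative cells, a fold of 0.858 (0.565 to 1.31). Tnfrsf10b, the mouse receptor for TRAIL, was at 1.41 FPKM in SATB1-positive and 1.85 FPKM in SATB1-negative cells, a fold of 0.763 (0.600 to 0.969). The adaptor Fadd was at 2.60 FPKM in SATB1-positive and 3.10 FPKM in SATB1-negative cells, a fold of 0.839 (0.713 to 0.982). Casp8 exceeded its inhibitor Cflar 3.29-fold in level in SATB1-positive and 3.02-fold in SATB1-negative cells.

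Trp53 was the second most abundant of the 42 genes in both fractions. It was at 257 FPKM in SATB1-positive and 184 FPKM in SATB1-negative cells, a fold of 1.40 (1.36 to 1.43) on about 10841 and 10085 fragments, and its log2 ratio of 0.48 was under the 1.5-fold rule. It ranked 258th in level in the SATB1-positive and 398th in the SATB1-negative library. Mdm4, which blocks the activation domain of p53, was at 22.8 FPKM in SATB1-positive and 16.3 FPKM in SATB1-negative cells, a fold of 1.39 (1.28 to 1.52). Mdm2, the ubiquitin ligase of p53 and itself a p53 target, was at 45.3 FPKM in SATB1-positive and 44.0 FPKM in SATB1-negative cells, a fold of 1.03 (0.985 to 1.08). The Trp53 to Mdm2 level ratio was 5.68 in SATB1-positive and 4.19 in SATB1-negative cells, while the Trp53 to Mdm4 ratio was 11.3 in both. Other annotated genes share 3.88% of the 50-base words of Trp53 and 7.30% of those of Mdm4.

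The p53 target genes did not share a direction. Sesn1, a stress-induced regulator of mTORC1, was the most abundant at 53.2 FPKM in SATB1-positive and 68.2 FPKM in SATB1-negative cells, a fold of 0.779 (0.747 to 0.813). Its relative Sesn2 was at 4.96 FPKM in SATB1-positive and 2.92 FPKM in SATB1-negative cells, a fold of 1.70 (1.47 to 1.96). The Sesn2 log2 ratio of 0.60 exceeded 0.58, and it was not counted because its higher level was just under 5 FPKM. The Sesn1 to Sesn2 level ratio was 10.7 in SATB1-positive and 23.3 in SATB1-negative cells. Ccng1, cyclin G1, was at 50.6 FPKM in SATB1-positive and 51.5 FPKM in SATB1-negative cells, a fold of 0.982 (0.944 to 1.02). Trp53inp1, a p53 cofactor in stress, was at 12.1 FPKM in SATB1-positive and 11.2 FPKM in SATB1-negative cells, a fold of 1.08 (1.01 to 1.15). Phlda3, an AKT inhibitor induced by p53, was at 2.87 FPKM in SATB1-positive and 3.42 FPKM in SATB1-negative cells, a fold of 0.841 (0.641 to 1.09), and Zmat3, an RNA-binding p53 target, at 0.296 FPKM in SATB1-positive and 0.429 FPKM in SATB1-negative cells, a fold of 0.691 (0.500 to 0.956). Of the 5 targets at 1 FPKM or more, 2 had log2 ratios above 0 and 3 below, with a median of -0.03.

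**Figure D3:**
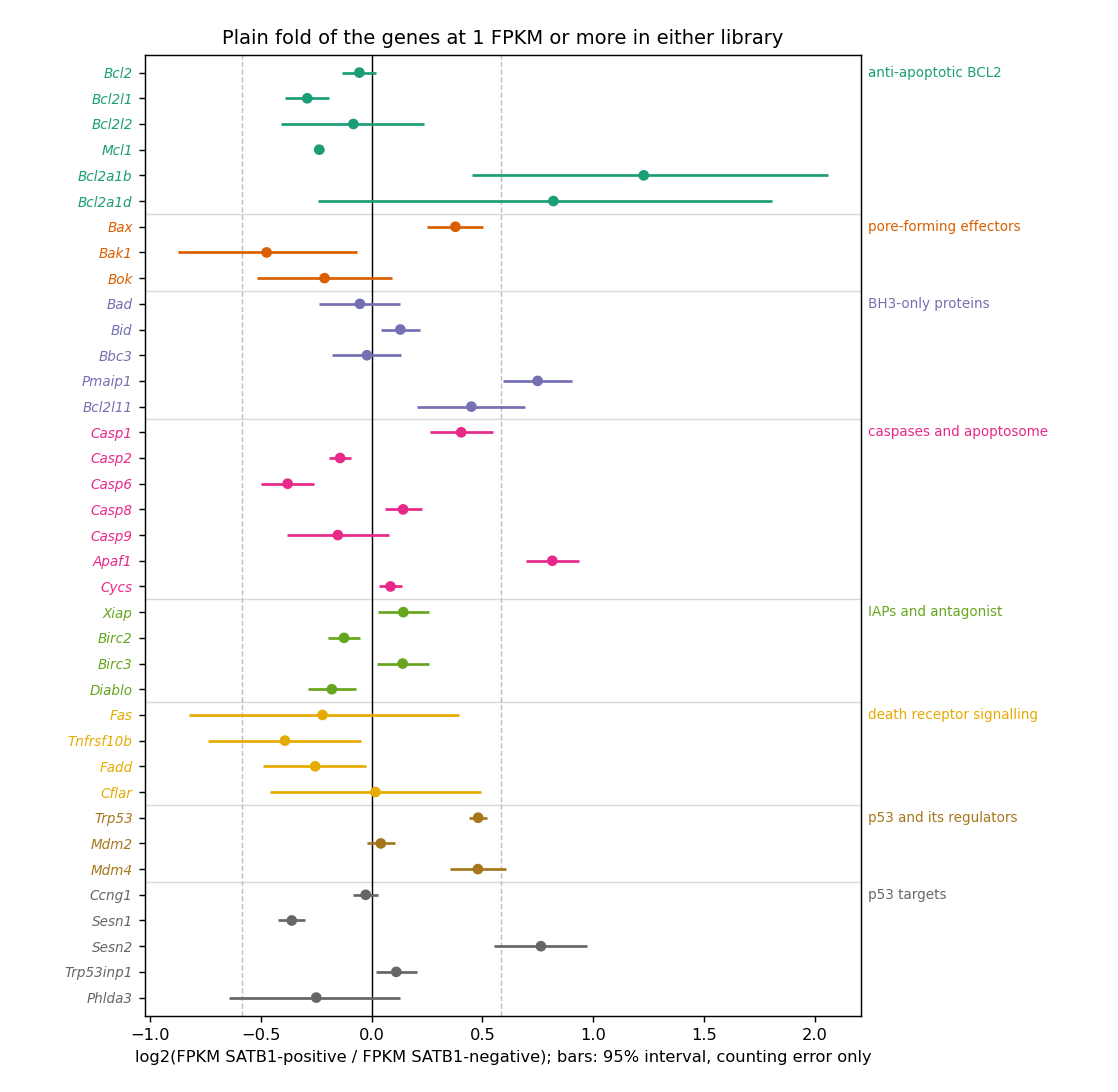
Plain fold of SATB1-positive over SATB1-negative FPKM on a log2 axis for the 37 genes that reached 1 FPKM, with bars for the 95% counting interval and dashed lines at 1.5-fold. Apaf1 at 1.76-fold and Pmaip1 at 1.68-fold have intervals wholly above 1.5-fold, while those of Bbc3, Mdm2, Ccng1 and Bcl2 contain 1.

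By role, the median log2 ratios were -0.05 for the anti-apoptotic genes, -0.18 for the effectors, 0.13 for the BH3-only genes, 0.08 for the caspases and apoptosome, 0.0029 for the inhibitor of apoptosis group, -0.19 for death receptor signalling, 0.46 for p53 and its regulators and -0.03 for the p53 targets. These groups hold 3 to 7 measured genes each. The effectors summed to 63.7 FPKM in SATB1-positive and 51.6 FPKM in SATB1-negative cells, and the BH3-only genes to 86.5 FPKM in SATB1-positive and 78.1 FPKM in SATB1-negative cells.

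Of 62 further genes of the same pathways, 61 were found, 57 reached 1 FPKM and 52 reached 5 FPKM. Their median log2 ratio was -0.03, 27 were above 0 and 30 below. None passed the 1.5-fold rule as higher and 2 passed as lower, set against backgrounds of 3.80% and 2.90%. Casp12, a caspase of the inflammatory cluster, fell to 7.84 FPKM in SATB1-positive cells, against 17.5 FPKM in SATB1-negative cells, a fold of 0.448 (0.405 to 0.496), and it also passed the 2-fold rule. Plk2, a stress-induced kinase gene and p53 target, fell to 77.4 FPKM in SATB1-positive cells, against 151 FPKM in SATB1-negative cells, a fold of 0.513 (0.497 to 0.529). Among the other targets of p53, Cdkn1a, which encodes the cell cycle inhibitor p21, was at 32.0 FPKM in SATB1-positive and 35.2 FPKM in SATB1-negative cells, a fold of 0.909 (0.819 to 1.01), and Btg2 at 126 FPKM in SATB1-positive and 85.7 FPKM in SATB1-negative cells. Cdkn2a, which restrains MDM2 through its ARF product, was listed at 0 in both libraries.

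Fasl and Tnf fell outside the naming rule and are given because their values stood out once seen. Fasl, the ligand of FAS made by cytotoxic T and NK cells, was at 2.82 FPKM in SATB1-positive and 0.233 FPKM in SATB1-negative cells, a fold of 12.1 (6.99 to 22.8). Tnf was at 4.66 FPKM in SATB1-positive and 1.51 FPKM in SATB1-negative cells, a fold of 3.09 (2.30 to 4.18). Both were under the 5 FPKM minimum, while Fas itself and Tnfrsf1a, a receptor of TNF at 58.4 FPKM in SATB1-positive and 61.0 FPKM in SATB1-negative cells, differed by under 1.25-fold. Of the 12 T and NK cell markers, 7 reached 5 FPKM, and all 7 passed the 2-fold rule as higher, against 1.31% of all genes at that level. The other 5, Zap70, Gzma, Klrd1, Ncr1 and Cd5, were under that minimum, with plain folds of 2.56 to 11.7. Cd3e was at 15.4 FPKM in SATB1-positive and 2.76 FPKM in SATB1-negative cells and Gzmb at 7.07 FPKM in SATB1-positive and 0.926 FPKM in SATB1-negative cells. No marker of that list was at 0 in either library. The list was chosen with earlier results of these data known, so its count beside 1.31% is a description only. Of the mast cell and basophil markers 5 of 6, and of the monocyte and dendritic cell markers 3 of 6, also passed the 1.5-fold rule as higher. The part of any of these cell types in the Fasl and Tnf values was not tested.

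**Figure D4:**
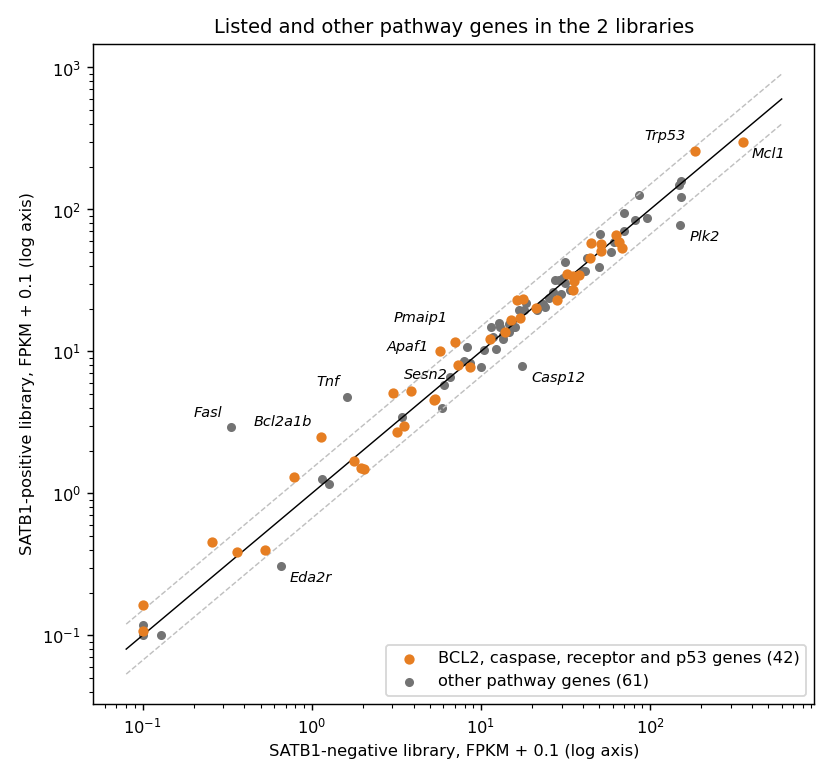
Level in the SATB1-positive library (vertical, FPKM + 0.1) against the SATB1-negative library (horizontal, FPKM + 0.1), both on log axes, for the 42 apoptosis and p53 genes and 61 further pathway genes, with a solid line at equality and dashed lines at 1.5-fold of the plotted values. Fasl and Tnf lie above the upper dashed line and Casp12 and Plk2 below the lower one.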

How the data were processed

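Total RNA of 2 sorted fractions was sequenced, 1 library each. Per the file headers, the authors deposited FPKM values with a single value for each symbol. Cufflinks 2.2.1, TopHat2 2.0.13, SAMtools 0.1.19 and Bowtie2 2.2.3 with build mm10 stand in the submitters' processing notes. Settings, annotation and strand handling were not given in the sources used here, so a gene and an overlapping or antisense gene may not be told apart. Of 23235 rows per file, 25 held dates or serial numbers in place of symbols and were left out. The 42 genes and all lists were chosen with earlier results of these data known. 1 listed marker of HSCs, and the sum of that list, are not reported here. The rule for naming asked for genes past the 1.5-fold rule, the most abundant of each role group, those under 1 FPKM in both libraries and Trp53, Mdm2, Bcl2, Mcl1, Bax and Bbc3. The text goes beyond it and gives the levels of all 42 genes, with folds and intervals for most.

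Without counts in the files, depth came from low FPKM values of genes with 1 exon and 1 transcript in GENCODE M21, whose steps are worth 1 fragment. At the chosen depths and a fragment offset of 205 bases, 64.4% of 188 SATB1-positive and 63.7% of 157 SATB1-negative values were whole within 0.05 fragments. A depth at random gives 10%, but the depths were chosen for a high share. A multiple of a depth also gives whole numbers. For this reason the lowest range of depths with a share near the best was kept, and the best depth within it was taken. Fragment numbers and interval widths rest on this choice. Fragments per gene used the shortest RefSeq-linked transcript. Intervals are exact (Clopper-Pearson) 95% intervals on the split of these estimates, and copies made by PCR make them too narrow. Scripts ran in Python 3.11.15 with pandas 2.3.3 and SciPy 1.17.1 and were tested on simulated data. Alternatives were pseudocounts of 0.1 and 5 FPKM, 3 scalings, other minimum levels and leaving out 13 genes that overlap another gene or share at least 10% of 50-base words.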

Additional observations from a re-analysis of the deposited data

How the results depend on the processing

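The count of genes past the 2-fold rule was 0 in both directions under every alternative run, and the count past the 1.5-fold rule as lower was 0 likewise. The count past the 1.5-fold rule as higher was 2, and became 0 with a pseudocount of 5 FPKM, 4 with no minimum level and 1 with a minimum of 10 FPKM. It was 3 after scaling to TPM and 2 under the remaining alternatives. With a pseudocount of 5 FPKM the log2 ratios of Pmaip1, Apaf1 and Sesn2 were 0.48, 0.49 and 0.33. Of 185 recomputed gene values, 182 moved by less than their counting interval, and 1, that of Cflar at 0.02, changed sign, to -0.0049 after division by the upper quartile. The median of the 37 genes ran from -0.04 to -0.02 over the pseudocounts and scalings. On other sets of the listed genes, the median was 0.01 with no minimum level and 0.02 without overlapping or near-identical genes. Over genes with a mean of 5 FPKM or more it was 0.03. The 3 scalings shifted plain folds by -0.02 to 0.0030 on the log2 scale. Scaling to TPM also raised the levels themselves, which lessens the weight of the pseudocount. Under it the log2 ratio of Bcl2a1b went from 0.75 to 0.93, that of Sesn2 from 0.60 to 0.68 and that of Bak1 from -0.29 to -0.36. No paired analysis was possible because each group has 1 library, and leaving out a replicate was not possible for the same reason. Bcl2a1a, Hrk and Bik, all under 1 FPKM, rest on fewer than 10 fragments in each library.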
